A study of Saccharomyces cerevisiae with 4 samples.

Results

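The GAS genes and the exoglucanase genes of Saccharomyces cerevisiae belong to families of enzymes that work on the beta-glucan of the cell wall. Out of 6690 names listed in each library, 8 were followed here: GAS1, GAS2, GAS3, GAS4 and GAS5, and SPR1, EXG1 and EXG2. They were chosen by family and looked up by systematic name (YMR307W, YLR343W, YMR215W, YOL132W, YOL030W, YOR190W, YLR300W and YDR261C, in that order), with earlier results of these data known. RNA-seq covered wild-type cells and cells deleted for SIR2 together with HST1, with 2 libraries per genotype that the series calls technical replicates. SIR2 and HST1 encode related NAD+-dependent deacetylases, and the comparison addresses how transcript levels differ once neither is present. The labels write the mating type of both strains as MAT@. Wild type carried hmr::ura3, GAL, lys2D, ura3-1, trp1-1, the double leu2 mutation leu2-3 leu2-112, can1-100 and his3-11. The deletion strain shared the auxotrophic and can1-100 alleles, carried hst1D::KanMX, sir2D::TRP1 and hmrD::ura3, and had no GAL allele in its label. Each genotype was represented by 1 strain, so any other difference between the strains, the TRP1 and KanMX markers included, cannot be told apart from an effect of the deletions. Cells grew exponentially in rich glucose medium (YPD) at 30 °C, from an OD of 0.3 to an OD of 1.

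Gas proteins form a family of glucanosyltransferases, enzymes that cut a beta-glucan chain and join the piece to another chain. The glucan of the wall is lengthened in this way. Exoglucanases remove glucose from the ends of such chains. Both families are divided between paralogs used by growing cells (GAS1, GAS3, GAS5, EXG1, EXG2) and paralogs known for their use in building the ascospore wall (GAS2, GAS4, SPR1). The spore genes belong to the middle phase of sporulation, which the activator Ndt80 turns on and which the DNA-binding repressor Sum1, working with Hst1, keeps off in growing cells.

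Each library gave 1 FPKM value (fragments scaled to gene length and library size) per name, with medians between 36.9 and 37.3 and between 202 and 264 names listed at 0. The files hold no read totals. Ratios of values under 1 FPKM fitted best with the other 3 libraries at 89.5%, 83% and 77.3% of the depth of wild-type replicate 1. Only 37.8%, 25.8% and 33.3% of the ratios matched at that fit. The library scaling is not given, so these are rough estimates. SIR2 was listed at 24.3 and 23.8 FPKM and HST1 at 58.2 and 57.8 FPKM in wild type, and both were listed at 0 in both deletion libraries. The 4 alpha-cell markers summed to 5518 and 5766 FPKM in wild type and to 4840 and 5508 in the deletion strain, against sums of 102 and 45.0, and 112 and 106, for 6 a-cell markers. Of the alpha markers, 0 passed as higher and SAG1, the alpha-agglutinin gene, fell by 0.95 on the log2 scale. MF(ALPHA)1 and STE3 did not pass but were lower at unadjusted p under 0.05 (limma, log2 differences -0.23 and -0.20). Of the a-cell markers 0 passed in either direction (limma, 2 higher at unadjusted p under 0.05). Over all 6370 genes tested (limma), 6.75% were higher and 2.79% lower at adjusted p under 0.05. At unadjusted p under 0.05, 1025 were higher and 900 lower. Within the a-cell sums MFA1 was listed at 35.3 and 0 FPKM and MFA2 at 47.0 and 21.1 FPKM in the wild-type replicates. Summed over 8 meiosis markers (IME1, IME2, NDT80, SPO11, DMC1, HOP1, REC8 and ZIP1) the level was 71.9 and 73.8 FPKM in wild type and 90.4 and 88.7 in the deletion strain, none of the 8 was listed at 0 in all 4 libraries, and their part in the results below was not tested. RNA of all cells was pooled in each library, so more cells that express a gene and more RNA per cell cannot be told apart.

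The promoters of the 3 spore paralogs are shown because these 3 genes moved together, and that of EXG1 because it is the closest relative of SPR1 among the 8. Each sequence runs from 250 bases before the start codon to 50 bases from it on, 5′ to 3′ on the gene's own strand, from the RefSeq R64 assembly of the reference strain. The build behind the FPKM values is not given in the sources used here, so no coordinates are printed. Capitals mark CACAAA on either strand, the core letters of the middle sporulation element that Ndt80 and Sum1 are known to bind, and where they occur the G and 1 further base before it.
GAS2 (chromosome XII, plus strand): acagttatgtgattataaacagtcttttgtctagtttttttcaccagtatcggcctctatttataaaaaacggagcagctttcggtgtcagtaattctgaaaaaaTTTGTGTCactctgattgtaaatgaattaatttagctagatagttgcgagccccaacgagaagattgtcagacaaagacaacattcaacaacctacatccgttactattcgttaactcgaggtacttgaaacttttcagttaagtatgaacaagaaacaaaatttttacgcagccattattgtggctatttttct
GAS4 (chromosome XV, plus strand): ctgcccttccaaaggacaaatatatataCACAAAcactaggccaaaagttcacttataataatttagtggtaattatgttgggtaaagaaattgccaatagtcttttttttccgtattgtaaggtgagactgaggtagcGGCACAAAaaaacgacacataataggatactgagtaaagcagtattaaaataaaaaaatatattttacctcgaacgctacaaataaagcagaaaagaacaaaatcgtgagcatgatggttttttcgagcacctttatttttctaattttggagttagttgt
SPR1 (chromosome XV, plus strand): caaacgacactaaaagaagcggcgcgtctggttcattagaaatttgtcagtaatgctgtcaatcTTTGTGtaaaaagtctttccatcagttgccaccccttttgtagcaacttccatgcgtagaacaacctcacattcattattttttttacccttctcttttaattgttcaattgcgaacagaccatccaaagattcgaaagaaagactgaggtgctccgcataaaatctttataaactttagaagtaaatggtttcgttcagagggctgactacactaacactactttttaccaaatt
EXG1 (chromosome XII, plus strand): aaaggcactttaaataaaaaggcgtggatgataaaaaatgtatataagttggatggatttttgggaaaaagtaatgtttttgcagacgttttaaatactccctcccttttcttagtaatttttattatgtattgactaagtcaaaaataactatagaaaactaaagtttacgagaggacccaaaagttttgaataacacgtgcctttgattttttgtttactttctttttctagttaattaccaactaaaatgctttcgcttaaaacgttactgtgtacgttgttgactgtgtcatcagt
In GAS2 the letters lie on the opposite strand at bases -145 to -140 from the start codon, with the G and the further base beside them. GAS4 has CACAAA at 2 places on its own strand, at bases -222 to -217 and -109 to -104, the second with the G and the further base. SPR1 has it at 1 place on the opposite strand, at bases -186 to -181, without the G. The base that follows CACAAA was not part of the search in any window. The windows of GAS1, GAS3, GAS5, EXG1 and EXG2 held 0 copies of CACAAA on either strand. Forms of the element with other letters were not searched for, so their absence from these windows is not shown. CACAAA was present in 18.8% of 6001 windows of the same length before R64 protein-coding genes, and the form with the G, which contains CACAAA, in 4.32%. Among the 5779 genes tested that have such a window, the shares were 19% and 4.41%. Among the 381 of them that were higher in the deletion strain, GAS2, GAS4 and SPR1 included, they were 31.5% and 15.2%. The difference between these shares was not tested. These matches describe letters in the reference sequence and were not tested as binding sites.

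All 8 genes had at least 1 FPKM in all 4 libraries and entered the test. GAS2, GAS4 and SPR1 rose in the deletion strain, and 0 of the 8 fell (limma with log2(FPKM + 1) values, threshold 0.05 on the p-value adjusted by Benjamini-Hochberg over 6370 genes; 0 also at an unadjusted p under 0.05). Over all genes tested 6.75% were higher and 2.79% lower, 9.54% in either direction. These are 430 higher and 178 lower genes, against 355 and 294 after quantile normalization. An unadjusted p under 0.05 (limma) was reached by 4 of the 8 genes, which were GAS2, GAS4, SPR1 and EXG2. Over all 6370 genes tested, 1025 were higher and 900 lower at that unadjusted threshold. The 3 that rose were the 3 spore paralogs, and the 5 paralogs of growing cells did not pass. The p-values measure only the spread between technical replicates, not between cultures.

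**Figure D1:**
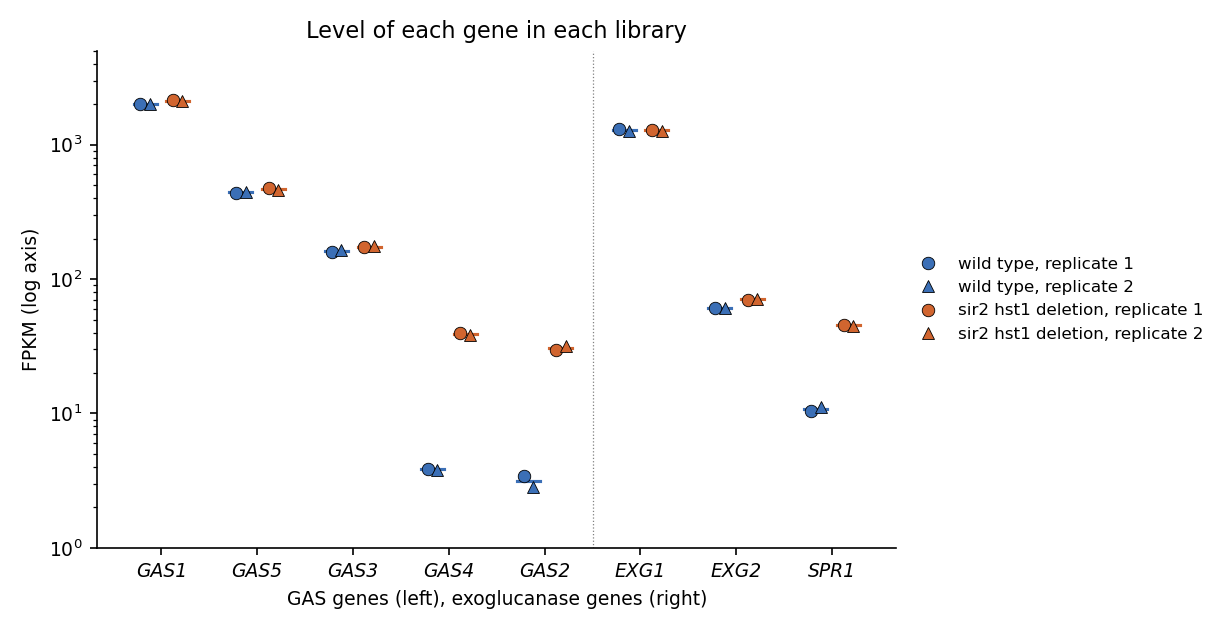
FPKM of the 8 genes in each library on a log axis, with circles for replicate 1, triangles for replicate 2 and a short line at the mean of each genotype (n = 2). GAS4, GAS2 and SPR1 are the genes whose deletion libraries (orange) stand far above the wild-type libraries (blue). Wild-type values were 3.87 and 3.82 for GAS4, 3.41 and 2.85 for GAS2 and 10.5 and 11.1 for SPR1.

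GAS4 and GAS2 were the glucanosyltransferase genes that rose. GAS4 was listed at 3.87 and 3.82 FPKM (wild type) and 39.5 and 38.4 FPKM (deletion strain). Both deletion libraries lay far above both wild-type libraries, and the replicates of each genotype were close together. Mean FPKM rose 10.1-fold, from 3.84 ± 0.04 to 38.9 ± 0.73 (SD, n = 2), a log2 difference of 3.04 (SE 0.07, limma adjusted p = 9.87e-05).

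GAS2, the other glucanosyltransferase gene of the spore wall, was listed at 3.41 and 2.85 FPKM (wild type) and 29.8 and 31.9 FPKM (deletion strain). Its mean rose 9.85-fold, from 3.13 ± 0.39 to 30.8 ± 1.5 FPKM, with a log2 difference of 2.95 (SE 0.10, limma adjusted p = 0.000282). The wild-type replicates of GAS2 differed by 17.8% of their mean, the widest replicate gap of the 8 genes, and the genotypes did not overlap. The 95% limma intervals of the log2 difference, 2.86 to 3.23 for GAS4 and 2.68 to 3.22 for GAS2, overlapped. Within a library GAS4 stood 1.14, 1.34, 1.32 and 1.20 times as high as GAS2, and these ratios overlapped between the strains.

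SPR1, the spore exoglucanase gene, started from a higher level than GAS2 or GAS4. It was listed at 10.5 and 11.1 FPKM (wild type) and 45.6 and 45.1 FPKM (deletion strain). Its mean rose 4.19-fold, from 10.8 ± 0.43 to 45.3 ± 0.39 FPKM, with a log2 difference of 1.97 (SE 0.06, limma adjusted p = 0.000224). The 95% interval of that difference, 1.81 to 2.14, lay below those of GAS2 and GAS4. Ranked by log2 difference among the 6370 genes tested, GAS4 was number 54, GAS2 number 58 and SPR1 number 115.

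**Figure D2:**
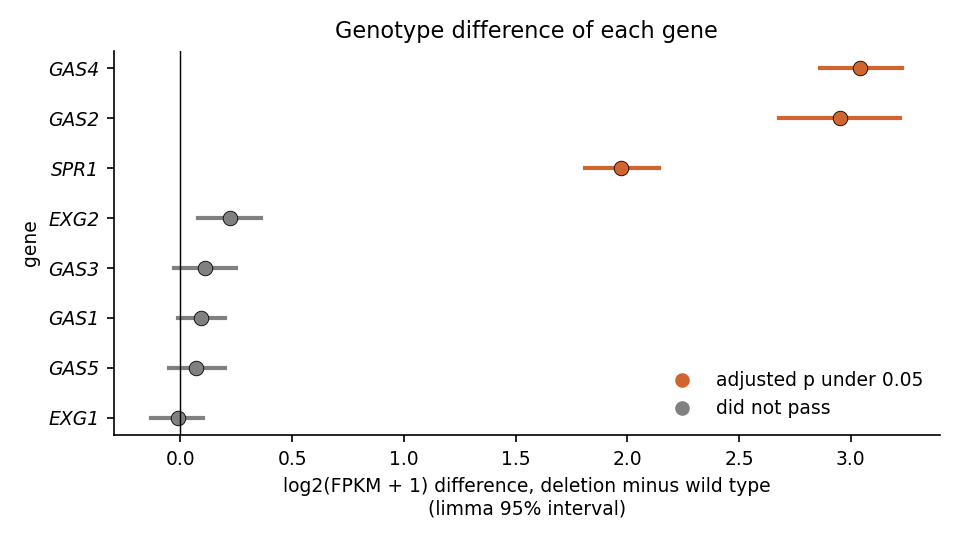
Difference in log2(FPKM + 1) between the deletion strain and wild type for each gene, with its 95% limma interval. GAS4, GAS2 and SPR1, in orange, lie between 1.97 and 3.04, whereas the other 5 genes, in grey, lie between -0.01 and 0.22 and did not pass.

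The GAS genes of growing cells differed little between the strains. GAS1, which encodes the main enzyme of the family in vegetative cells, was listed at 2002 and 1994 FPKM (wild type) and 2144 and 2119 FPKM (deletion strain). Its log2 difference was 0.09, with a 95% interval of -0.01 to 0.20 (limma adjusted p = 0.197). GAS5 was listed at 440 and 448 FPKM (wild type) and 476 and 459 FPKM (deletion strain) (log2 difference 0.07, interval -0.05 to 0.20, adjusted p = 0.366). GAS3 was listed at 158 and 165.5 FPKM (wild type) and 173 and 176 FPKM (deletion strain) (log2 difference 0.11, interval -0.03 to 0.25, adjusted p = 0.251). For each of these 3 genes both deletion libraries lay above both wild-type libraries, by small margins. Such separation was common, since in 30.5% of all genes tested both deletion libraries lay above both wild-type libraries, and it held for 7 of the 8 genes followed here. GAS1 exceeded GAS5 by 4.55, 4.45, 4.5 and 4.62 times in the 4 libraries, and GAS5 exceeded GAS3 by 2.78, 2.71, 2.76 and 2.61 times, proportions that the 2 strains shared.

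EXG1, which encodes the major secreted exoglucanase, was the gene whose level moved least. It was listed at 1299 and 1273 FPKM (wild type) and 1294 and 1260 FPKM (deletion strain), and the genotypes overlapped. The log2 difference was -0.01 (-0.03 to 0.01 over the alternative settings), with an interval of -0.13 to 0.10 (limma adjusted p = 0.9). EXG2, which encodes an exoglucanase attached to the cell surface by a glycolipid anchor, was listed at 61.2 and 60.5 FPKM (wild type) and 70.4 and 71.6 FPKM (deletion strain). Its genotypes did not overlap and its interval, 0.08 to 0.36, lay above 0, but it did not pass over all genes (log2 difference 0.22, limma adjusted p = 0.0725).

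The order of the 8 genes by FPKM, which is per length of gene, was the same in both strains. From the highest to the lowest level it was GAS1, EXG1, GAS5, GAS3, EXG2, SPR1, GAS4 and GAS2. In both strains each gene lay above the next in the order in every library, so no neighbouring levels overlapped. The distances at the lower end shrank, however. EXG2 stood 5.83 and 5.44 times as high as SPR1 in the wild-type libraries and 1.54 and 1.59 times as high in the deletion libraries. EXG1 stood 124 and 115 times as high as SPR1 in wild type and 28.4 and 28.0 times as high in the deletion strain. GAS1 stood 587 and 699 times as high as GAS2 in wild type and 72.0 and 66.4 times as high in the deletion strain. Against GAS4 the corresponding ratios of GAS1 were 517 and 523, and 54.3 and 55.1.

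**Figure D3:**
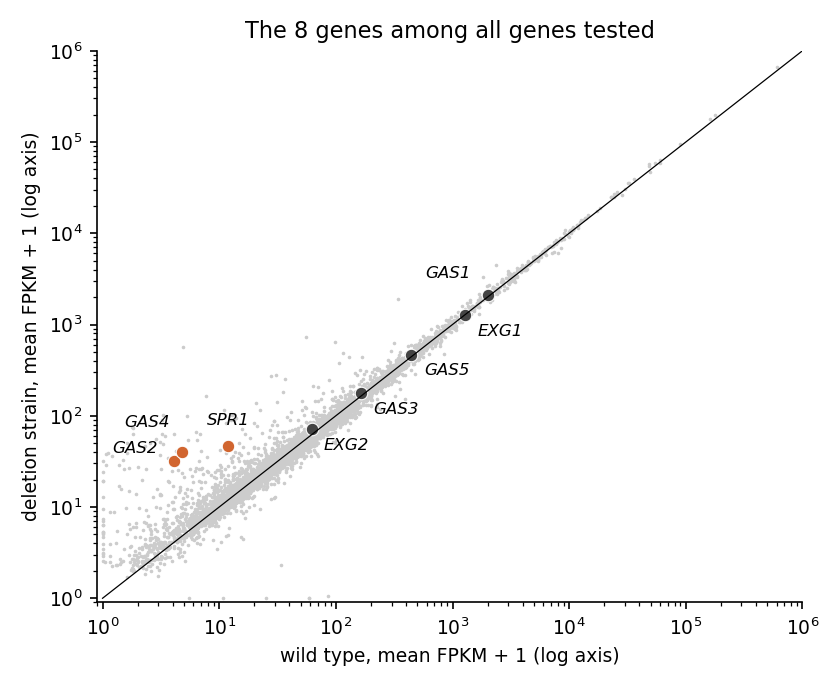
Mean FPKM + 1 of every gene tested in wild type (x axis) and in the deletion strain (y axis), both on log axes, with the line of equal level. GAS2, GAS4 and SPR1 (orange) lie above the line at the lower end, with deletion means of 30.8, 38.9 and 45.3 FPKM, and the other 5 genes (dark) lie along it.

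As a share of all GAS FPKM, the spore paralogs stayed small in both strains. GAS2 and GAS4 together held 0.279% and 0.255% of the summed FPKM of the 5 GAS genes in the wild-type libraries and 2.42% and 2.49% in the deletion libraries. The sum itself was 2607 and 2615 FPKM in wild type and 2863 and 2824 in the deletion strain. SPR1 held 0.766% and 0.827% of the summed FPKM of the 3 exoglucanase genes in wild type and 3.23% and 3.27% in the deletion strain. With 2 libraries against 2 an exact two-sided permutation test cannot go below p = 0.33, so the shares were not tested.

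**Figure D4:**
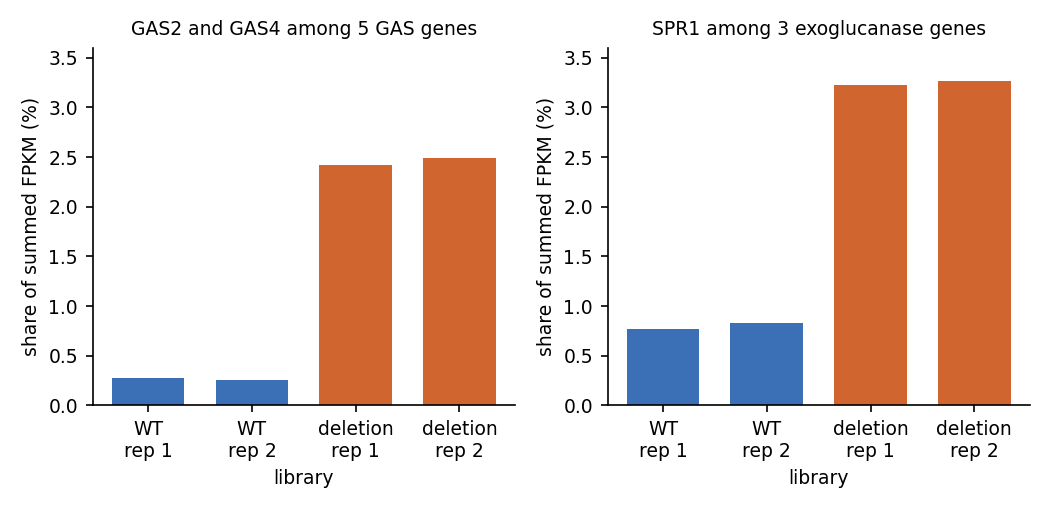
Share of the summed FPKM of each family held by its spore paralogs, 1 bar per library (wild type blue, deletion strain orange). For GAS2 and GAS4 (left) the bars reach 0.279% and 0.255% in wild type and 2.42% and 2.49% in the deletion strain, and for SPR1 (right) 0.766%, 0.827%, 3.23% and 3.27%.

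Proteins translated from the R64 coding sequences had 559, 555, 524, 471 and 484 residues for GAS1, GAS2, GAS3, GAS4 and GAS5, and 445, 448 and 562 for SPR1, EXG1 and EXG2. SPR1 and EXG1 were the closest pair, with 64.4% of 444 aligned residues and 68% of 1330 aligned coding bases identical. The longest exact run of bases that this pair shared was 17. Within the GAS family protein identity ran from 38.5% (GAS1 and GAS4) to 48.5% (GAS1 and GAS2), and GAS2 and GAS4, which rose together, were 40.1% identical. By sequence, therefore, GAS2 was closer to GAS1 than to GAS4. GAS1 and GAS2 also had 14 and 16 cysteines against 6, 9 and 8 in GAS3, GAS4 and GAS5, and both are known to carry a cysteine-rich module after the catalytic domain. No exact run longer than 20 bases was shared by any of the 8 with another R64 coding sequence, and no other R64 gene overlapped them.

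The genes beside the 8 on the chromosome mostly did not pass. Of 16 neighbouring positions in R64, 14 held a gene that the files list and 2 held a tRNA gene that they do not. Of these 14 genes 0 were higher and 1 lower, against 6.75% higher and 2.79% lower over all genes tested. The lower gene was HRT1, a ubiquitin ligase subunit gene upstream of GAS4 on the same strand. HRT1 fell from 109 and 112 FPKM to 88.35 and 89.44 FPKM (log2 difference -0.31, limma adjusted p = 0.0343). HRT1 no longer passed without any 1 of the 4 libraries (adjusted p between 0.079 and 0.22), with the replicate block (0.0696) or without the trend (0.0512). YOL131W on the other side of GAS4 had means of 1.565 and 2.848 FPKM in wild type and the deletion strain (adjusted p = 0.126). Upstream of GAS2, YLR342W-A was listed at 82.7 and 75.1 FPKM (wild type) and 109 and 140.5 FPKM (deletion strain) (adjusted p = 0.0561), and it passed without deletion replicate 1 (adjusted p = 0.0471). Beside SPR1, IES4, a chromatin remodelling subunit gene, had means of 145.5 and 143.1 FPKM (adjusted p = 0.84) and ULS1 of 10.2 and 8.96 FPKM (adjusted p = 0.228). The neighbours of GAS1 are FKS3, described below, and PSE1, with means of 103 and 108 FPKM (adjusted p = 0.563). Those of GAS3, SCJ1 and SKY1, had log2 differences of 0.13 and -0.10 (adjusted p = 0.255 and 0.311), and those of GAS5, SIL1 and YOL029C, of 0.21 and -0.24 (adjusted p = 0.143 and 0.0864). ECM38 and HRI1 beside EXG1 had -0.18 and 0.01 (adjusted p = 0.147 and 0.957), and SWM1 beside EXG2 had 0.11 (adjusted p = 0.441).

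The genes with levels most like those of the spore paralogs were found by Euclidean distance of log2(FPKM + 1) over the 4 libraries. Because the distance uses both genotypes, it picks genes that differed between the strains about as much as the paralog did. The 5 nearest to GAS2 were YSW1, SPO21, SPO74, YNL319W and GAS4 itself, at distances of 0.37 to 0.59. Nearest to GAS4 were SPO74, GAS2, DTR1, YSW1 and SPS2, at distances of 0.29 to 0.79, and nearest to SPR1 were YER187W, SPO75, EST1, SMA2 and YHL012W, at 0.25 to 0.56. SPO74, which encodes a part of the meiotic spindle pole body, was listed at 3.17 and 3.31 FPKM (wild type) and 41.6 and 39.2 FPKM (deletion strain).

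Among the genes that make the beta-glucan on which these enzymes act, 1 of 13 rose and 1 fell, against the shares of 6.75% and 2.79% over all genes tested, with a median log2 difference of 0.02 (-0.03 after quantile normalization) against -0.01 over all genes. GSC2 (also called FKS2), which encodes a catalytic subunit of glucan synthase used under stress and in sporulation, rose 2.12-fold, from 12.99 and 12.02 FPKM to 26.6 and 26.5 FPKM (log2 difference 1.03, limma adjusted p = 0.00232). FKS1, the main catalytic subunit gene of growing cells, was listed at 260 and 251 FPKM (wild type) and 256 and 249 FPKM (deletion strain) (adjusted p = 0.878). FKS3, a related gene with a known part in spore wall formation, was listed at 2.595 and 2.332 FPKM (wild type) and 3.26 and 3.00 FPKM (deletion strain), short of the threshold (log2 difference 0.25, interval -0.13 to 0.64, adjusted p = 0.309). KNH1, a KRE9 homolog of cell wall glucan assembly, fell by 0.70 on the log2 scale, from 41.55 and 40.82 FPKM to 24.6 and 25.5 FPKM (adjusted p = 0.00409). The other 9 genes did not pass. RHO1 and SMI1, which encode regulators of glucan synthase, had log2 differences of 0.02 and 0.09. KRE6, SKN1, KRE5, KRE9, KRE1, ROT1 and BIG1, which act in the synthesis of the branching glucan, had log2 differences of -0.02, -0.28, 0.09, -0.10, 0.17, -0.07 and 0.29.

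Of the 3 genes that link glucan to chitin, the spore paralog rose and the paralogs of growing cells did not pass. CRR1, known for its part in the spore wall, rose 4.21-fold, from 6.59 and 5.46 FPKM to 26.2 and 24.5 FPKM (log2 difference 1.91, SE 0.11, limma adjusted p = 0.0013). CRH1 was listed at 540 and 525 FPKM (wild type) and 524 and 575 FPKM (deletion strain) (adjusted p = 0.683), and UTR2 at 911 and 944 FPKM in wild type, with 961.5 and 1057 FPKM in the deletion strain (adjusted p = 0.275). The list's median log2 difference was 0.12, against -0.01 over all genes tested. Of all genes tested 6.75% were higher and 2.79% lower (limma, adjusted p under 0.05).

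Of 12 other genes of glucan remodelling and cell separation 3 fell and 0 rose (limma), with a median log2 difference of -0.08. Over all genes tested 2.79% were lower and 6.75% higher, which is also the background of the wall integrity genes below. At unadjusted p under 0.05 (limma), 900 of the 6370 genes tested were lower and 1025 higher. At that threshold 1 of the 12 was higher, and UTH1 was lower besides the 3 that fell. The 3 were EGT2 (log2 difference -0.47, from 202 and 206 to 140 and 155 FPKM, adjusted p = 0.0246), NCA3 (-0.38, from 22.6 and 21.4 to 16.3 and 17.2 FPKM, adjusted p = 0.0443) and SCW11 (-0.34, from 204 and 192 to 153 and 159 FPKM, adjusted p = 0.0357). NCA3 and SCW11 lost the call when any 1 of the 4 libraries was left out, with the replicate block (adjusted p = 0.0802 and 0.0711) and without the filter (0.0843 and 0.0631), and SCW11 also without the trend (0.0563). EGT2 lost it without the filter (0.0634) and without any library but deletion replicate 2 (0.0552 to 0.103). Of 14 genes that respond to wall stress through the cell integrity pathway, or act in it, 2 fell and 0 rose (limma). Their median log2 difference was -0.17. At unadjusted p under 0.05 (limma) 0 were higher, and PIR1, PRM5, SLT2 and YPS1 were lower besides the 2 that fell. PST1, a gene that wall damage is known to induce, fell by 0.71 on the log2 scale, from 483 and 460 to 294 and 281 FPKM (adjusted p = 0.00347). RLM1, which encodes the transcription factor of the pathway, fell by 0.34, from 43.6 and 44.8 to 33.5 and 35.7 FPKM (adjusted p = 0.0408). RLM1 did not pass without any 1 of the 4 libraries (adjusted p between 0.0743 and 0.188), without the filter (0.0792), without the trend (0.0538) or with the replicate block (0.062).

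**Figure D5:**
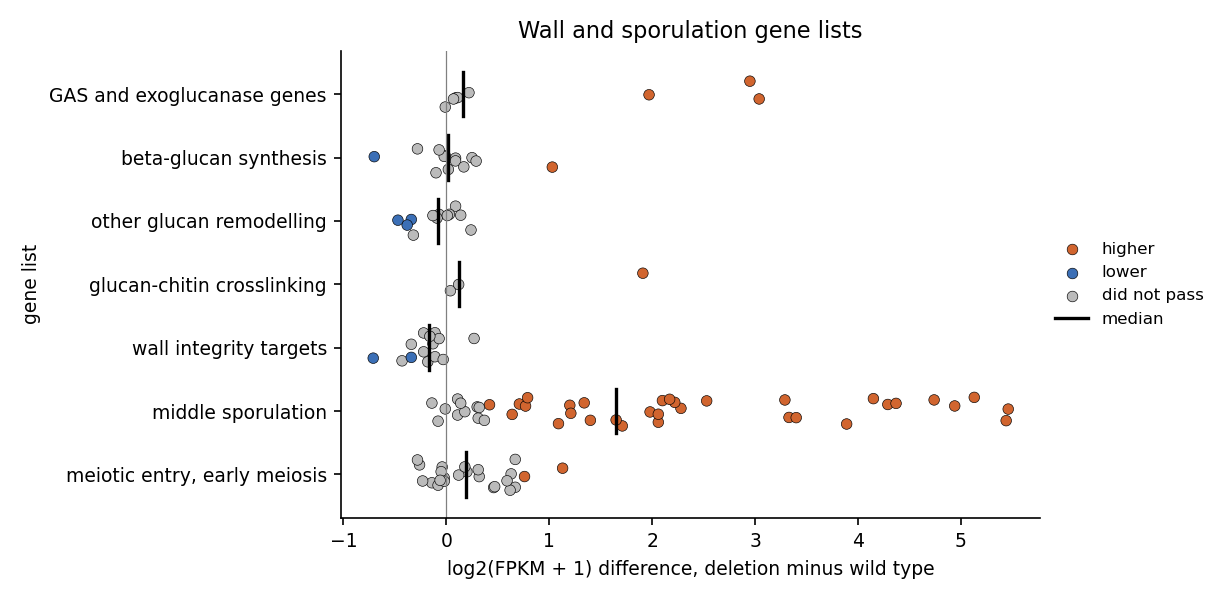
Difference in log2(FPKM + 1) of each tested gene in 7 lists, with genes that passed as higher in orange, as lower in blue and the others in grey, and the median of each list as a black line. GAS2, GAS4 and SPR1 (orange, top row) lie within the range of the middle sporulation genes, whose median is 1.65, whereas the medians of the wall lists lie between -0.17 and 0.12.

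Beside these wall genes, 32 of 43 other genes of middle sporulation passed as higher, 20 without deletion replicate 2 and 21 without deletion replicate 1, and 0 as lower (limma, 0 also at unadjusted p under 0.05), with a median log2 difference of 1.65. The changes of GAS2 and GAS4 lay above that median and the change of SPR1 a little above it. LDS1, PFS1, CDA2 and CDA1 had the largest differences of the list on the log2(FPKM + 1) scale, of 5.46, 5.44, 5.13 and 4.94. That order depends on the pseudocount, since with a pseudocount of 0.1 FPKM the 4 had differences of 6.22, 6.53, 7.46 and 5.39 and HXT14, named after its values were seen, had 7.31. CDA1 and CDA2 encode the chitin deacetylases that make the chitosan of the spore wall. LDS1 was listed at 1.20 and 1.16 FPKM (wild type) and 94.7 and 95.9 FPKM (deletion strain). Of the 24 genes of meiotic entry and early meiosis 2 rose, DMC1 and MSH4, and 0 passed as lower (limma, 1 at unadjusted p under 0.05), with a median of 0.19 that became -0.12 after quantile normalization. The count of 2 is near the background of 6.75% higher over all genes tested at the adjusted threshold. IME1, SPO11, REC8, REC114, ZIP2, MND1 and SPO13 were also higher at unadjusted p under 0.05 (limma). Of the 6370 genes tested, 1025 were higher and 900 lower at that unadjusted threshold. DMC1 went from 5.61 and 5.87 to 10.1 and 10.7 FPKM (log2 difference 0.76, adjusted p = 0.0134) and MSH4 from 4.28 and 3.53 to 10.7 and 8.83 FPKM (log2 difference 1.13, adjusted p = 0.0159). Both lost the call without deletion replicate 1 (adjusted p = 0.0705 and 0.0843) or 2 (0.0797 and 0.0655), and MSH4 without the filter (0.0507). NDT80 was listed at 23.19 and 25.97 FPKM (wild type) and 27.15 and 29.57 FPKM (deletion strain), short of the threshold (log2 difference 0.20, adjusted p = 0.201).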

How the data were processed

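The authors deposited 1 FPKM value per name and library, and the submitters' processing notes name Cuffnorm 2.2.1 and TopHat2 2.0.10. Build, annotation, library scaling and treatment of multiply mapped reads or strand: not given in sources used here. Reads antisense to a gene therefore cannot be separated from its own.

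Of 6690 names, 6007 matched an R64 locus tag (RefSeq), which was used for symbols, neighbours and sequence. FPKM values of all 4 libraries were compared on log2(FPKM + 1), a scale that understates changes of low genes, for 6370 names reaching 1 FPKM in 2 or more libraries. Differences were tested with limma 3.58.1 (R 4.3.3, eBayes with trend, prior df 2.65, two-sided, Benjamini-Hochberg over all genes tested). It was tested on simulated data. Folds are ratios of mean FPKM, given only where both means are at least 2. Values above 0 and under 1 FPKM were divided between wild-type replicate 1 and each other library, for 127, 89 and 102 genes. At the best-fitting offset 37.8%, 25.8% and 33.3% of these ratios matched ratios of small whole numbers (within 0.005 on the log2 scale). These were too few to recover reads, so no count test was run. Identity came from global alignments with Biopython 1.88.

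The 8 genes and the gene lists were chosen with earlier results of these data known, and no list was tested as a set. The genes named are the 8, their neighbours, all of the glucan synthesis and crosslinking lists, the deleted genes, up to 4 genes past the threshold from each other list by size of difference, and the 5 nearest genes by level to GAS2, GAS4 and SPR1. NDT80 was named as a marker. Genes named only for an unadjusted p under 0.05 were picked after their values were seen. Alternatives were pseudocounts of 0.1 and 5 FPKM, no filter or a minimum of 5 FPKM, quantile and median scaling, no trend, a replicate block, and each library left out in turn.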

Additional observations from a re-analysis of the deposited data

How the results depend on the processing

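GAS2, GAS4 and SPR1 passed under all 12 alternatives and the other 5 genes under none. Log2 differences ran from 2.14 to 3.26 for GAS2, from 2.31 to 3.31 for GAS4 and from 1.67 to 2.06 for SPR1, with the lowest values at a pseudocount of 5 FPKM, which shrinks changes of low genes by construction. The highest adjusted p was 0.0217, 0.0115 and 0.0163. For EXG2 it lay between 0.0695 and 0.348, and EXG1 ran from -0.03 to 0.01. Same-numbered libraries shared only a number (correlation of their deviations -0.094). With the replicate block GAS2, GAS4 and SPR1 had adjusted p-values of 0.00123, 0.000642 and 0.00114, and all genes gave 360 higher and 111 lower against 430 and 178.

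Over all genes 184 to 377 were higher and 47 to 83 lower when 1 library was left out (190 and 184 higher without deletion replicate 1 and 2), a fit that takes the spread of the single library left from the other genotype, 76 were lower without the filter and 294 after quantile normalization, which also gave 355 higher. Other glucan remodelling genes numbered 0 to 1 higher and 0 to 2 lower without 1 library, 0 lower without the filter and 1 lower with the replicate block, and wall integrity genes 0 to 1 higher and 1 to 3 lower without 1 library and 1 lower without the filter, without the trend or with the replicate block. Middle sporulation genes numbered 20 to 30 higher without 1 library (21 without deletion replicate 1, 20 without deletion replicate 2) and early meiotic genes 0 to 3, or 4 without the trend. Quantile normalization put the list medians at -0.03 (glucan synthesis), -0.13 (remodelling), -0.19 (wall integrity), 1.44 (middle sporulation) and -0.12 (early meiosis), and the wild-type share of GAS2 and GAS4 at 0.318%. The middle sporulation median was 1.85 and 1.13 at pseudocounts of 0.1 and 5 FPKM and 1.71 at a minimum of 5 FPKM, and the early meiosis median was 0.16 at a pseudocount of 5 FPKM and 0.15 at that minimum. Without 1 library the medians ran from 0.00 to 0.07, -0.09 to -0.04, -0.21 to -0.17, 1.37 to 1.62 and 0.19 to 0.23 in the same order. The cause of these shifts was not tested. Depth was estimated only roughly and in relative terms, so no counting interval can be given for the low wild-type values of GAS2 and GAS4.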
